A study of Homo sapiens with 6 samples.

Results

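The keratin genes were examined in xenograft tumors grown under the skin of nude mice from BxPC-3, an established line of human pancreatic adenocarcinoma cells. Members were the non-control spots whose gene name in the array's design was KRT, a number and, for some, a letter. This gave 55 of the 36337 gene names on the array, measured by 64 of 50599 probes on 91 of 58717 spots. All 55 symbols were found among the protein-coding keratins of RefSeq, 27 of them on chromosome 12 and 28 on chromosome 17. The genes were divided into 5 simple keratins (KRT7, KRT8, KRT18, KRT19 and KRT20), 8 basal and squamous keratins (KRT5, KRT6A, KRT6B and KRT13 to KRT17), 17 hair keratins (KRT31 to KRT40 and KRT81 to KRT86) and 25 others.

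RNA was taken from 3 control tumors and 3 tumors treated with deferasirox (DFX, an iron chelator taken by mouth), and each tumor was hybridized to its own one-color array. Female BALB/c nu/nu mice carried the same xenograft in both groups, injected subcutaneously into the back, and treatment began once a tumor had reached 150 mm3. DFX was suspended in saline and given by gavage at 200 mg/kg, 3 times a week over 21 days, and control mice received saline alone. The model was 1 established cell line in a host that lacks mature T cells but keeps its other cells, so host RNA could reach a human probe where mouse and human sequences are alike. The labels do not say whether each tumor came from a different mouse, and the p-values measure only the spread between these tumors. The 6 arrays shared 1 slide. Row 1 held the controls and row 2 the treated tumors, so that slide row and treatment cannot be told apart.

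Keratins are the intermediate filament proteins of epithelial cells. Each filament is built from pairs of an acidic type I keratin, such as KRT18 or KRT14, and a basic or neutral type II keratin, such as KRT8 or KRT5, and which pair is made tells much about the kind of epithelium. KRT8 and KRT18 are the pair of single-layered epithelia, KRT7 and KRT19 are typical of ducts such as those of the pancreas, and KRT20 is best known from intestinal and urothelial cells. KRT5 and KRT14 form the pair of basal cells in layered epithelia, KRT6A, KRT6B, KRT16 and KRT17 are induced in wounded or stressed epidermis, and the hair keratins build the hair shaft and the nail.

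Levels are log2 normalized intensities, and differences are DFX minus control on that scale, which is the log2 fold change. A level belongs to 1 probe and is not compared here between probes. Tested with limma were the probes whose background p-value was under 0.05 on every array, and a probe was counted as called at an unadjusted p under 0.05. In bulk tumors, fewer cells of one type and less RNA per cell cannot be told apart. The share of probes well above background ran from 50.3% to 56.5% over the arrays and no spot was saturated. Over all 31807 tested probes 2675 were called, and none reached an adjusted p under 0.05 after Benjamini-Hochberg adjustment, the lowest being 0.0675. How precise a value can be is limited by there being 3 arrays a group.

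Probes of these genes are shown because the reading of KRT18 and KRT8 depends on which probe is taken. Each is 60 bases long, written 5′ to 3′ as in the array's design, in lower case throughout. The KRT18 probes read the plus strand of chromosome 12 in hg19, probe 1 at chr12:53346116-53346554 and probe 2 at chr12:53345577-53345636. The 60 bases of probe 1 are spread over 439 bases of the genome and therefore cross an intron.
KRT18 probe 1: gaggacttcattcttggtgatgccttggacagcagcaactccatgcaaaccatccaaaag
KRT18 probe 2: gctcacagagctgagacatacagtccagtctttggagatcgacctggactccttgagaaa
Of the 3 probes named for KRT8, probe 1 lies at chr12:53291026-53291085 and probe 3 at chr12:53294461-53294995, both on the minus strand, and probe 3 is spread over 535 bases. Probe 2 was designed on another transcript and lies at chr12:53343241-53343300 on the minus strand. That is 48246 bases from the nearest other KRT8 probe and 2277 bases from the nearest KRT18 probe, which reads the opposite strand.
KRT8 probe 2: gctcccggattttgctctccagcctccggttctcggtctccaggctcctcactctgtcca
KRT8 probe 3: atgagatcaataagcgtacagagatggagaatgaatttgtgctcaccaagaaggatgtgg
No gene models of hg19 were used here, so exons and untranslated regions were not assigned.

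Both the simple and the basal and squamous keratins were measured throughout. All 5 simple keratins and all 8 basal and squamous keratins were well above background on all 6 arrays with each of their probes. By contrast, 7 of 19 hair keratin probes and 14 of 27 probes of the other keratins were well above background on all 6 arrays, and 9 and 7 of them on none. Over the family, 39 of 64 probes were well above background on every array, 9 on some arrays and 16 on none, and the number on 1 array ran from 40 to 45. The 6 epithelial markers EPCAM, CDH1, MUC1, CEACAM6, KRT7 and KRT19 were well above background on all arrays.

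**Figure D1:**
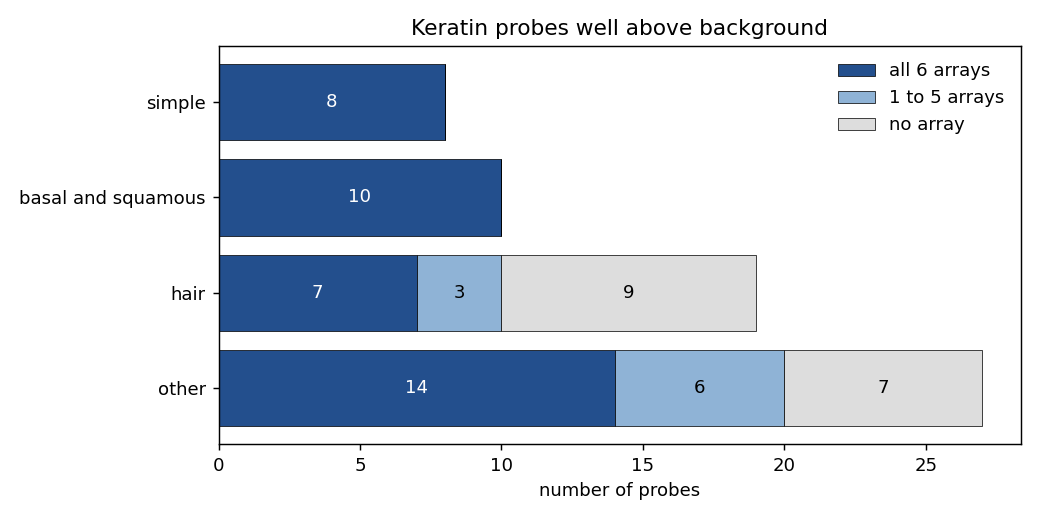
Number of keratin probes (horizontal axis) in each class (vertical axis) that were well above background on all 6 arrays, on 1 to 5 arrays or on no array. All 8 simple and all 10 basal and squamous probes are in the first category, against 7 of 19 hair probes.

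After the detection filter 46 keratin probes of 40 genes were tested. KRT20, KRT8 and KRT18 were higher in the DFX-treated tumors, each with 1 called probe, and no keratin was called lower. The called genes made up 7.5% of the 40, beside 10.6% of all 23810 tested genes, and the 3 called probes of 46 stand beside 8.41% of all tested probes called in either direction and 3.46% called higher. A share near that of all genes is no result about the family as a whole. The calls lay in 1 class, with 3 of the 5 simple keratins and none of the 8 basal and squamous, 9 hair and 18 other tested genes. Adjusted by Benjamini-Hochberg over the whole array, the lowest p of a keratin probe was 0.514 in limma.

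KRT20, a type I keratin, had the largest log2 fold change of the tested keratins. Its probe (chr17:39032532-39032591, minus strand, hg19) read 6.94, 7.68 and 5.27 in control tumors 1 to 3, and 9.40, 9.41 and 8.45 in DFX-treated tumors 1 to 3. Every DFX-treated tumor was above every control tumor, and the spread among the controls was large, with control tumor 3 lowest. The means were 6.63 ± 1.23 (SD, n = 3) and 9.09 ± 0.55 (SD, n = 3). The log2 fold change was 2.46 with a standard error of 0.64, or 5.50-fold with a 95% interval of 1.86 to 16.3 (limma, unadjusted p = 0.0084, adjusted p = 0.514). The gene kept an unadjusted p under 0.05 in each of the 20 other ways of processing that were tried, with log2 fold changes from 1.73 to 2.98. Not all of these were separate checks. Its only probe was well above background on every array, so averaging probes or changing the detection filter reused the same values. The Kruskal-Wallis H test restated that the groups did not overlap. The value was 1.73 with the raw mean signal, 1.81 with normexp background correction and 1.77 without control tumor 3.

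KRT8, the type II partner of KRT18, was called with its probe 1 only. That probe read 14.55, 14.21 and 14.06 under vehicle and 14.78, 14.86 and 14.62 under DFX. The groups did not overlap, although control tumor 1 came close to DFX-treated tumor 3. The log2 fold change was 0.48 with a standard error of 0.16, or 1.40-fold with a 95% interval of 1.07 to 1.83 (limma, unadjusted p = 0.0228, adjusted p = 0.553). Probe 3, on the same transcript, read 8.14, 8.16 and 8.06 under vehicle and 8.40, 8.56 and 8.11 under DFX. Here DFX-treated tumor 3 lay among the controls, and the difference of 0.24 did not pass (limma, unadjusted p = 0.144). Probe 2, the distant probe beside KRT18, read 11.11, 10.97 and 11.17 against 10.89, 11.05 and 10.95. Its groups overlapped, and its difference was -0.12 (limma, unadjusted p = 0.307).

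KRT18, the type I partner, gave a smaller difference. Probe 1 read 16.24, 16.33 and 16.18 under vehicle and 16.57, 16.53 and 16.47 under DFX, without overlap. The log2 fold change was 0.27 with a standard error of 0.10, or 1.21-fold with a 95% interval of 1.02 to 1.43 (limma, unadjusted p = 0.034, adjusted p = 0.575). Probe 2, which lies 480 bases away, read 13.94, 14.15 and 13.98 against 14.23, 14.19 and 14.10. Control tumor 2 was above DFX-treated tumor 3 on this probe, and the difference was 0.15 with a 95% interval of -0.12 to 0.41 (limma, unadjusted p = 0.224). Both calls of the KRT8 and KRT18 pair were lost under other processing. With arrays scaled to their medians in place of quantile normalization the values were 0.37 for KRT8 and 0.15 for KRT18, and with all probes of a gene averaged they were 0.20 and 0.21. The KRT8 mean includes the distant probe 2, and which transcript that probe reads was not settled here.

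The ductal keratins KRT7 and KRT19 did not pass the test. KRT7 (type II; chr12:52642590-52642649, plus strand) read 16.75, 17.09 and 17.25 under vehicle and 16.90, 16.88 and 16.81 under DFX. Its DFX values sat inside the range of the controls, with a difference of -0.17 and a 95% interval of -0.54 to 0.20 (limma, unadjusted p = 0.308). KRT19 (type I; chr17:39679918-39679977, minus strand) read 18.54, 18.44 and 18.44 against 18.44, 18.50 and 18.54. The groups covered the same range, with a difference of 0.022. KRT19 is among the brightest probes, and quantile normalization gives arrays the same value at the same rank, as the repeated values show, so this difference says little. With arrays scaled to their 75th percentile it was 0.14.

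**Figure D2:**
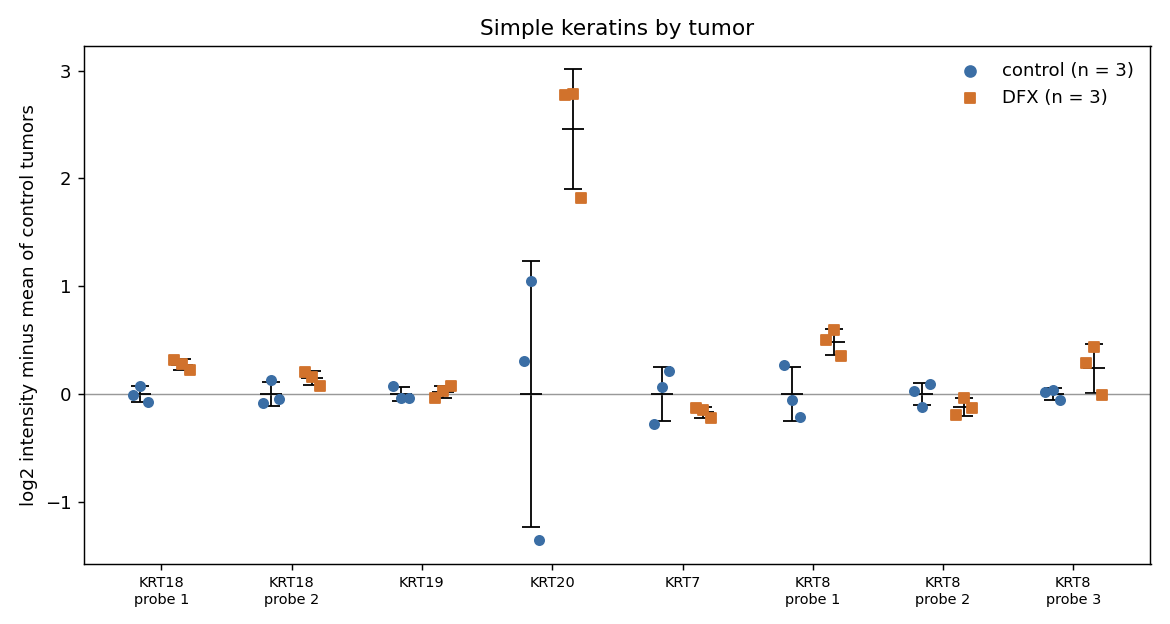
Log2 intensity of each simple keratin probe in each tumor minus the mean of the control tumors (vertical axis), by gene and probe (horizontal axis). Points are tumors, control in blue circles and DFX in orange squares, and the bars give the mean and SD of each group (n = 3). KRT20, KRT8 probe 1 and KRT18 probe 1 separate the groups, and the other probes overlap.

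Taking each gene by its brightest tested probe and each tumor against the mean of the controls, the median over the 5 simple keratins was 0.07, 0.06 and -0.07 in control tumors 1 to 3 and 0.32, 0.28 and 0.22 in the DFX-treated tumors. The median difference of the class was 0.27, with 4 genes above 0 and KRT7 below it, beside a median of -0.012 over all tested genes. This median is the value of KRT18 itself. Among the other epithelial markers, EPCAM, an epithelial adhesion protein, read 13.39, 13.36 and 13.17 under vehicle and 13.78, 13.79 and 13.65 under DFX (difference 0.43; limma, unadjusted p = 0.0088, adjusted p = 0.514). It was the only 1 of the 6 epithelial markers that was called, beside 10.6% of all tested genes. The summed intensity of the marker probes ran from 553829 to 558516 under vehicle and from 546300 to 563531 under DFX. KRT7 and KRT19 are members of both lists and made up most of each sum. As the KRT19 difference says little after quantile normalization, so does the sum.

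No basal or squamous keratin was called, and the class had a median difference of -0.046, with 3 genes above 0 and 5 below. KRT5 and KRT14, the basal pair, differed by 0.14 and -0.29. KRT5 (type II; chr12:52908622-52908681, minus strand) read 15.58, 15.82 and 16.02 under vehicle and 15.83, 15.97 and 16.05 under DFX. The brightest of 3 KRT14 probes (chr17:39740013-39740072, minus strand) read 14.95, 15.56 and 15.25 against 14.82, 15.10 and 14.98, and the other 2 gave differences of 0.02 and -0.30. All 4 probes overlapped between the groups, so neither gene of the pair differed beyond its spread.

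KRT13, a type I keratin of the suprabasal cells of layered mucosa, was the single keratin of this class whose groups did not overlap. Its probe (chr17:39659920-39661309, minus strand) read 13.67, 13.64 and 13.58 under vehicle and 13.49, 13.30 and 12.67 under DFX. The controls were close together and DFX-treated tumor 3 lay well below the others. The difference was -0.48 with a standard error of 0.22 and a 95% interval of -1.02 to 0.07 (limma, unadjusted p = 0.076).

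The keratins of wounded and stressed epidermis gave no call. KRT16 (chr17:39767216-39767364, minus strand) read 10.63, 9.08 and 9.45 under vehicle and 9.01, 9.29 and 9.85 under DFX. Control tumor 1 was above all others, and the difference of -0.34 had an interval of -1.41 to 0.73. KRT6B, a type II keratin, read 11.33, 10.94 and 11.28 against 11.20, 11.26 and 12.02, where DFX-treated tumor 3 stood apart, and differed by 0.31. KRT6A differed by 0.015, KRT17 by -0.06 and KRT15, a keratin of basal and hair follicle stem cells, by -0.03, each with overlapping groups. KRT6A, KRT6B and KRT6C are close copies of each other, as are parts of KRT14, KRT16 and KRT17, and whether a probe also read RNA of a copy was not tested.

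**Figure D3:**
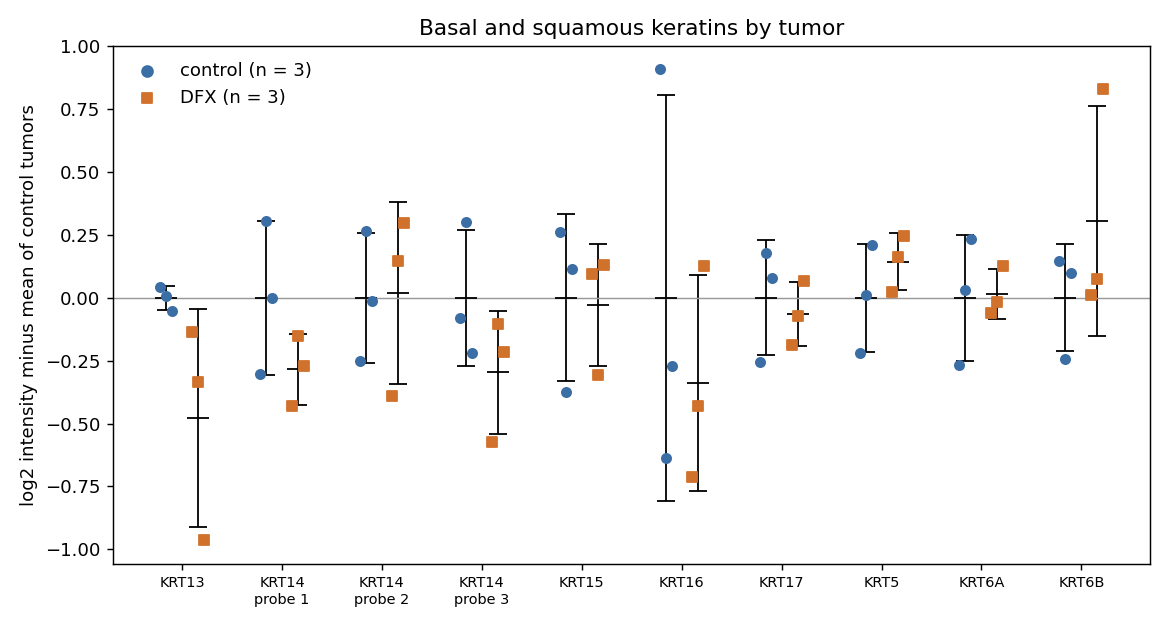
Log2 intensity of each basal and squamous keratin probe in each tumor minus the mean of the control tumors (vertical axis), by gene and probe (horizontal axis). Points are tumors, control in blue circles and DFX in orange squares, and the bars give the mean and SD of each group (n = 3). Only KRT13 separates the groups, and control tumor 1 is the highest point of KRT16.

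In the hair class, 9 of 17 genes had a tested probe, 7 genes were well above background on all arrays and 7 on none. The tested genes had differences from -0.62 to 0.096 with a median of -0.032, and none was called or separated the groups. This median is the value of KRT83, and the genes behind it include KRT38, which was near background. KRT31, a type I hair keratin, had the largest difference. It read 7.22, 6.79 and 7.00 under vehicle and 5.56, 6.83 and 6.75 under DFX, so that the difference of -0.62 lay mainly in DFX-treated tumor 1 (limma, unadjusted p = 0.134). KRT81, a type II hair keratin, read 14.09, 14.06 and 13.82 against 14.11, 14.10 and 13.43, a difference of -0.11. KRT85 and KRT86 differed by 0.096 and -0.11, and the type I genes KRT32 and KRT33A by 0.05 and -0.35. KRT39 was well above background on 5 arrays and differed by 0.014. KRT38 passed the filter without being well above background on any array, so no fold is given for it. The hair keratins without a tested probe were KRT33B, KRT34, KRT35, KRT36, KRT37, KRT40, KRT82 and KRT84.

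The 2 KRT83 probes did not give the same reading. One was well above background on 6 arrays and read 11.73, 11.76 and 11.77 under vehicle and 11.74, 11.86 and 11.56 under DFX, a difference of -0.03. The other was well above background on 0 arrays and was not tested. KRT81, KRT83 and KRT86 are close copies of each other, and whether the tested KRT83 probe also read another of them was not tested. The longest run of bases shared by probes of different keratins was 17, between KRT33A, which was well above background on all arrays, and KRT33B, which was on none. Of the 34 keratin genes with a promoter window in RefSeq (250 bases before to 50 after the start, GRCh38.p14), 21 held TATAAA on either strand, beside 11.5% of all 35116 windows. They were 11 of the 14 hair keratins and 10 of the 17 others with a window. KRT5, KRT8 and KRT20 had a window without the motif. The remaining simple, basal and squamous keratins had no window and were not searched, so the classes cannot be compared. Keratins were counted as genes, and the share over all as windows.

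Genes of differentiated skin and hair follicle were read beside the hair keratins. Of 10 such genes, 5 had a tested probe and 5 were well above background on no array, among them DSG4, a desmosomal cadherin of the hair follicle, and the keratins KRT2, KRT25, KRT27 and KRT71. Sums, here and for the other lists, are of probes well above background on any array, tested or not. For the 8 such probes of this list the sum ran from 13976 to 15114 under vehicle and from 13435 to 13658 under DFX. It was lower in each DFX-treated tumor. Most of each sum came from the KRT10 probe, whose groups overlapped (difference -0.07, limma, unadjusted p = 0.478). FLG (filaggrin, which bundles keratin filaments in the upper epidermis) was the called gene of this list, with 2 of its 3 probes. That is 1 of 5 tested genes, beside 10.6% of all tested genes. The brightest FLG probe read 9.74, 9.77 and 9.59 under vehicle and 8.99, 8.77 and 9.15 under DFX (difference -0.73; limma, unadjusted p = 0.00173, adjusted p = 0.513). Its part in the keratin values was not tested.

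None of the 18 tested genes among the other keratins was called, and their median difference was -0.027. KRT9, a type I keratin of palms and soles, separated the groups. It read 6.58, 6.68 and 6.62 under vehicle and 7.15, 7.35 and 6.70 under DFX, and DFX-treated tumor 3 was just above the controls (difference 0.44, 95% interval -0.010 to 0.89; limma, unadjusted p = 0.054). KRT79, a keratin of the sebaceous duct, read 7.84, 7.76 and 8.36 against 8.40, 8.23 and 9.47. Its groups overlapped, with DFX-treated tumor 3 highest, and the difference was 0.71 (limma, unadjusted p = 0.096).

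KRT4, the type II partner of KRT13, differed by -0.025, with control tumor 1 at 15.90 and the other 5 tumors between 15.07 and 15.42. KRT10, the suprabasal type I keratin of the epidermis, lay between 13.60 and 13.74 in all tumors and differed by -0.07. KRT23 varied among the controls, from 11.27 in control tumor 3 to 12.93 in control tumor 1, and the DFX values of 12.21, 11.82 and 12.55 fell inside that range. KRT6C differed by -0.20, KRT75 by -0.26, KRT80 by -0.26, KRT74 by 0.15, KRT24 by 0.12, KRT3 by -0.06, KRT73 by -0.03 and KRT78 by 0.0031, all with overlap between the groups. KRT1 and KRT77, each well above background on 2 arrays, differed by 0.23 and -0.05. KRT25 passed the filter without being well above background on any array, and KRT2, KRT12, KRT26, KRT27, KRT28, KRT71 and KRT72 had no tested probe.

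Where a tested keratin was well above background in only 1 group, the mean of that group was set against a floor in the other. For KRT222 this was so on 2 DFX arrays and on none of the controls. Its mean under DFX was 1.42-fold above the control floor (measured means 4.61 and 3.50; limma, unadjusted p = 0.063). That value is no lower bound on the change. The groups overlapped, with control tumor 3 at 4.33 and DFX-treated tumor 1 at 3.83. The limma interval of the measured fold ran from 0.945 to 4.97. For KRT76 it was so on 2 control arrays and no DFX array. Its control mean was 1.06-fold above the DFX floor (measured means 4.41 and 3.90; limma, unadjusted p = 0.097). This is no bound either, as the limma interval of the measured fold, DFX over control, ran from 0.454 to 1.09. Each brighter mean includes a tumor not well above background, DFX-treated tumor 1 for KRT222 and control tumor 2 for KRT76. For the floor, each array gave either the weakest signal that was well above its background or the probe's own signal, whichever was higher. Values against the floor apply to this processing. Over the family, 6 of 46 tested probes had groups that did not overlap, beside 15.5% of all tested probes. KRT20, KRT8, KRT18 and KRT9 were the higher ones and KRT13 and KRT76 the lower ones.

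**Figure D4:**
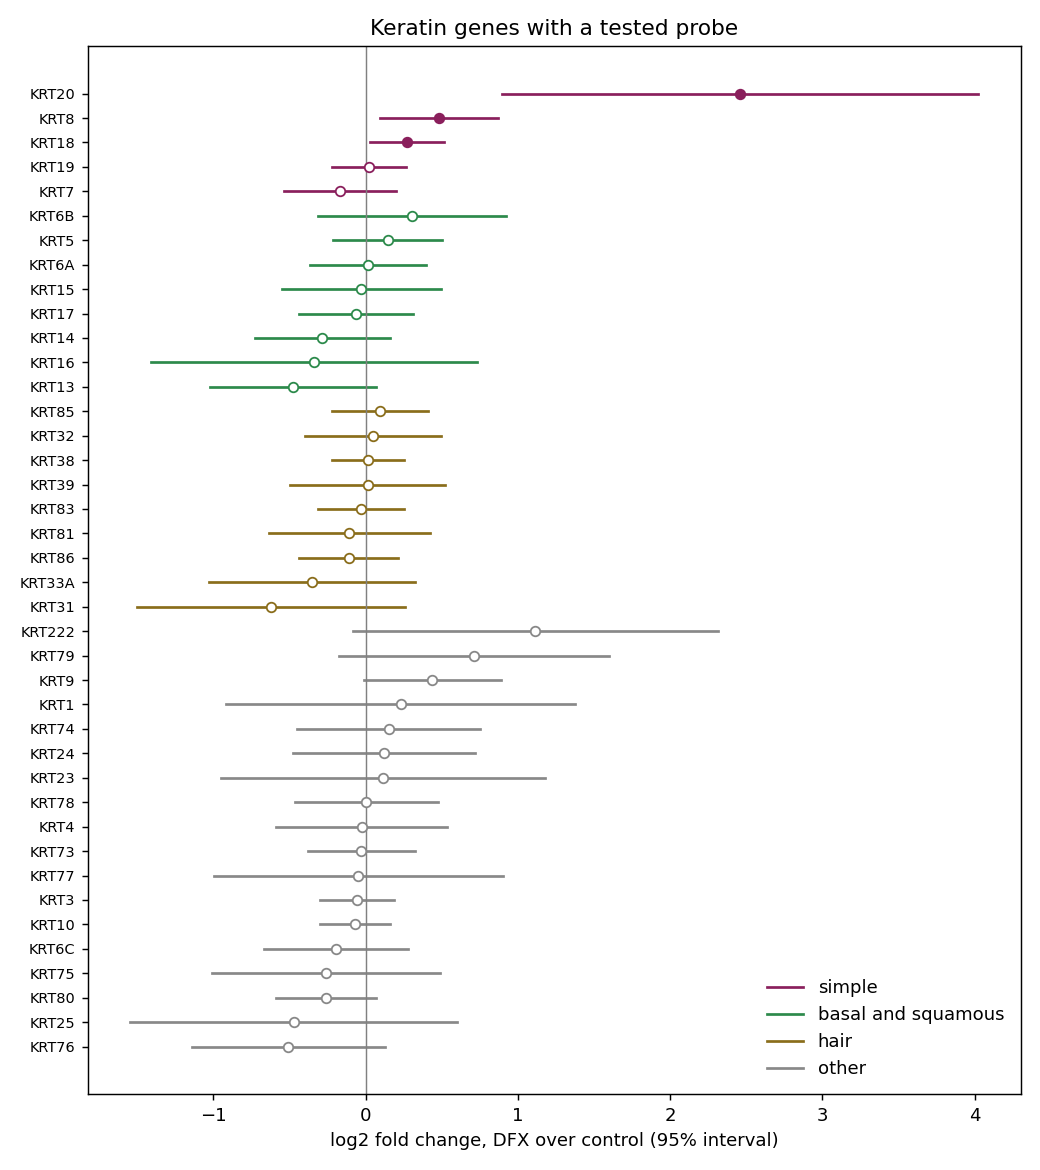
Log2 fold change, DFX over control, of the brightest tested probe of each of the 40 tested keratin genes (horizontal axis), ordered by class and size (vertical axis). Lines are 95% intervals of limma, and filled points have an unadjusted p under 0.05. The filled points are KRT20, KRT8 and KRT18, all in the simple class. KRT25 and KRT38 are drawn although they were near background on all arrays.

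Proteins that anchor or modify keratin filaments were taken from lists of known function. Of 19 tested genes of desmosomes and linkers, which tie keratin filaments to cell junctions, none was called, beside 10.6% of all tested genes. Their median difference was 0.033. DSP (desmoplakin, which binds keratins at the desmosome) read 14.81, 14.87 and 14.79 under vehicle and 14.97, 14.92 and 15.09 under DFX, without overlap and with a difference of 0.17 (limma, unadjusted p = 0.147). A further DSP probe overlapped between the groups, with a difference of 0.14. JUP (plakoglobin) differed by 0.024 and PLEC (plectin), which links intermediate filaments to other structures, by -0.019.

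Of 10 tested genes of other intermediate filaments, 1 was called, near the 10.6% of all genes. INA, a neuronal filament protein, read 5.29, 5.55 and 5.41 under vehicle and 5.13, 4.93 and 4.73 under DFX (difference -0.48; limma, unadjusted p = 0.0153, adjusted p = 0.526). VIM (vimentin, the filament of mesenchymal cells) read 11.83, 12.61 and 11.60 against 11.86, 12.21 and 12.16, with a difference of 0.06. Its groups overlapped.

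Among 16 tested genes that modify or chaperone keratins, 2 were called higher and 2 lower with any of their probes, beside 10.6% of all tested genes called, and the median difference was -0.08. HSPA8, a constitutive chaperone, read 13.19, 13.41 and 13.65 with one probe under vehicle and 12.90, 12.95 and 12.46 under DFX (difference -0.64; limma, unadjusted p = 0.0145, adjusted p = 0.526). A dimmer HSPA8 probe was called in the same direction. DNAJB6, a co-chaperone known to bind KRT18, read 14.14, 14.09 and 14.25 against 13.91, 13.92 and 13.93 on its called probe (difference -0.24; limma, unadjusted p = 0.0477). YWHAZ, a member of the 14-3-3 proteins that bind phosphorylated KRT18, read 11.86, 11.96 and 11.84 against 12.54, 12.18 and 12.32 on its called probe (difference 0.46; limma, unadjusted p = 0.0108, adjusted p = 0.514). The brighter YWHAZ probe went the other way, with 13.93, 13.92 and 14.00 against 13.71, 13.83 and 13.81. Its groups did not overlap, and its difference of -0.17 did not pass (limma, unadjusted p = 0.14), so the direction of YWHAZ depends on the probe. None of these 3 genes had an adjusted p below 0.514. Of 11 tested genes of the cornified envelope, the cross-linked shell of the uppermost epidermal cells, FLG alone was called, and the median was -0.19.

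Host cell markers are given for comparison with the keratin values. Calls in these lists stand beside 10.6% of all tested genes called, and lists this short give no result about a cell type. Of 8 tested fibroblast markers, DCN (decorin) fell, from 10.93, 11.45 and 12.07 to 9.94, 10.10 and 10.53, as did PDGFRA, a receptor of mesenchymal cells (differences -1.30 and -1.12; limma, unadjusted p = 0.0064 and 0.0098). LUM (lumican) was higher, by 0.87 (limma, unadjusted p = 0.0435). Their summed intensity with the other fibroblast probes was 13913 to 22942 under vehicle and 12769 to 15844 under DFX. PDGFRB was not well above background on any array. None of 6 tested leukocyte markers was called, with sums of 2251 to 2636 and 2339 to 2742, and every array lacked a CSF1R signal well above background. Of 4 tested endothelial genes, 1 was called. This was PECAM1, which rose by 1.27 on its brightest probe (limma, unadjusted p = 0.000475, adjusted p = 0.504). Its dimmer probes, not well above background on every array, rose by 1.64 and 2.22 and were also called. The other 3 genes had negative differences, but KDR, among them, was well above background on no array. The list summed to 607 to 1020 under vehicle and 732 to 836 under DFX, with a VWF probe as the largest part of each sum. The part of these cells in the keratin values was not tested.

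The calls of KRT20, KRT8 and KRT18 were followed through each alternative of the processing. KRT20 was called in all of them, some of which reused the same values. KRT8 was not called without control tumor 2, control tumor 3, DFX-treated tumor 1 or DFX-treated tumor 2, with values of 0.45, 0.38, 0.47 and 0.43. KRT18 was not called without control tumor 1, control tumor 3, DFX-treated tumor 1 or DFX-treated tumor 2, with values of 0.27, 0.24, 0.25 and 0.27. The direction of both was the same throughout.

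**Figure D5:**
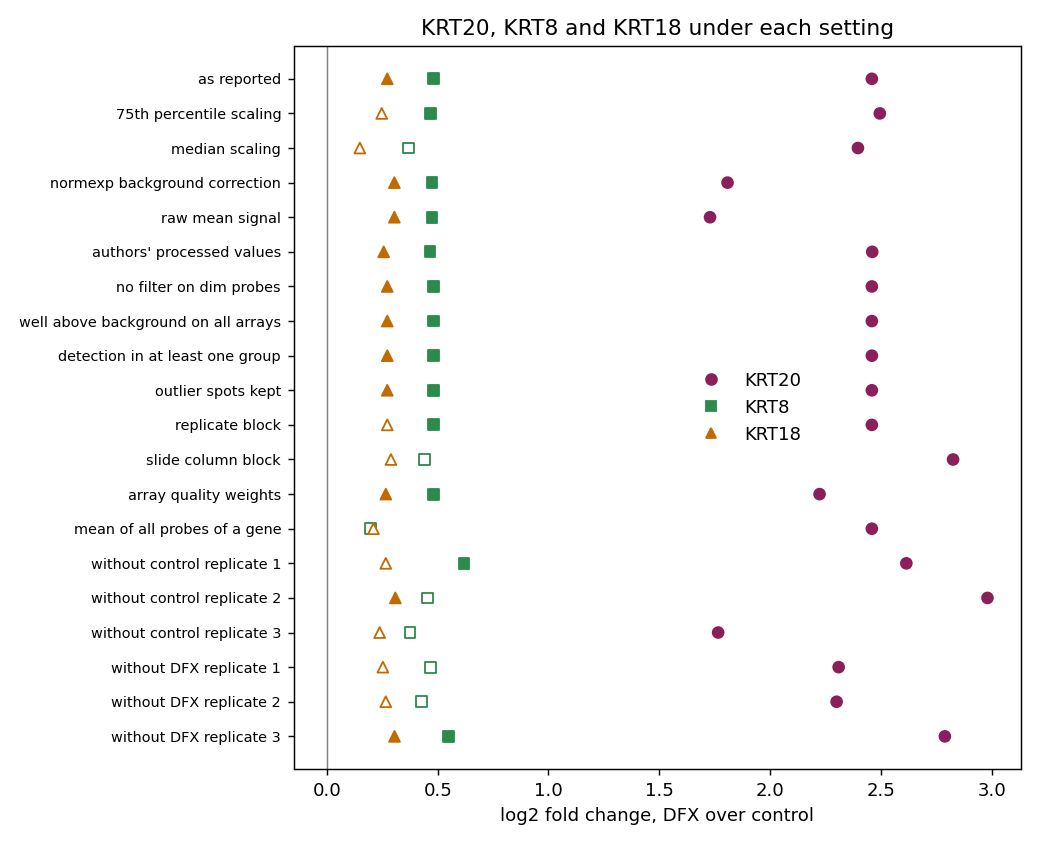
Log2 fold change, DFX over control (horizontal axis), of KRT20, KRT8 and KRT18 as reported and under each alternative (vertical axis). Filled symbols have an unadjusted p under 0.05 in limma and open symbols do not. KRT20 is filled throughout, from 1.73 to 2.98, while KRT8 (0.20 to 0.62) and KRT18 (0.15 to 0.31) are open in several settings and stay above 0.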

How the data were processed

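Total RNA of 6 tumors was labelled with Cy3 and hybridized to one-color Agilent 60-mer arrays. The authors deposited scanner files with linear intensities (raw, background and background-subtracted), a p-value of each spot against its background and flags, and a table of linear intensities after quantile normalization. File headers name Feature Extraction 10.7.1.1, and the submitters' processing notes 9.5.1.1. The study's methods name log2 and quantile normalization of raw intensities. Here both steps were applied to the background-subtracted signal of non-control spots, with the raw mean signal as an alternative. The values from the background-subtracted signal differed from the authors' table by a median of 0.640%. Outlier flags removed 1398 spot values, replicate spots were averaged, and the filter kept probes whose background p-value was under 0.05 on every array. These were tested with lmFit and eBayes of limma 3.58.1 (R 4.3.3), two-sided, with 2.04 prior degrees of freedom and Benjamini-Hochberg adjustment across the array. The study names the Kruskal-Wallis H test for its in vivo experiments, without saying whether that covers the arrays, and it was run as an alternative. A gene is given by its brightest tested probe, and counted as called when any tested probe passed. The fit was tested on simulated data.

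The members and lists were chosen with earlier results of these data known. Named genes are all simple and basal and squamous keratins, other keratins called or well above background on all 6 arrays, list genes with a called probe, and VIM, DSP, JUP and PLEC. KRT222, KRT76, other dim keratins and list genes named for being well above background on no array were added after their values were seen. Alternatives covered scaling, background, signal column, the authors' table, detection filter, outlier flags, blocks, array weights, averaging probes, and leaving out each tumor. Replicate numbers do not pair the tumors by any label. Probe positions are those of the array files on hg19. Some named genes and probe sequences are not reported here.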

Additional observations from a re-analysis of the deposited data

How the results depend on the processing

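KRT20 kept its direction and its unadjusted p under 0.05 in all 20 alternatives, though probe averaging and the detection filters reused the values of its only probe. KRT8 lost its call with median scaling (0.37), the slide column as a block (0.44) and the mean of all probes (0.20). KRT18 lost it with 75th percentile scaling (0.25), median scaling (0.15), the replicate block (0.27), the slide column block (0.29) and the mean of all probes (0.21). Leaving out 1 tumor at a time gave 0.38 to 0.62 for KRT8 and 0.24 to 0.31 for KRT18. The number of called keratin genes was 1 with median scaling and with the slide column block, 5 when arrays were scaled to the 75th percentile, and 6 with the Kruskal-Wallis H test, which gives such a p to every probe without overlap, and 2 to 5 with a tumor left out. KRT13, KRT14, KRT6C, KRT7, KRT9, KRT33A, KRT36, KRT38, KRT76, KRT79 and KRT222 each entered that count in at least 1 setting. The number of called probes overall was 1418 with the slide column block and 4927 with the Kruskal-Wallis H test. The median of the simple keratins was 0.15 with median scaling and 0.20 with the mean of all probes, and that of the hair keratins was -0.15 with median scaling. The basal and squamous median ran from -0.15 to 0.0056 and crossed 0 in 2 settings. With the slide column block, control tumor 2 and DFX-treated tumor 1 each stood alone in a column. The comparison then rested on slide columns 2 and 4, which each held 1 tumor of each group. The number of calls in that setting therefore says little. The cause of the other shifts was not tested. With the replicate block, 2419 probes and 3 keratin genes were called (KRT20, KRT8 and KRT79). Deviations of same-numbered tumors correlated by 0.027, 0.027 and 0.016, which gives no pairing by number. For the 30 named keratins without a call, 12 of 570 values became calls and 41 had the other sign.

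For the keratins that were well above background on no array, a difference could not be measured with these probes. With 3 arrays a group, no keratin reached an adjusted p under 0.05.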

Other observations

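Calls in the 2 short lists that follow stand beside 10.6% of all tested genes called. Of 4 tested muscle markers none was called, with summed intensities of 1607 to 4377 under vehicle and 2734 to 4352 under DFX. Of 2 tested adipocyte markers, CIDEC, a protein of lipid droplets, was called higher with its brighter probe. That probe read 8.88, 9.17 and 8.82 under vehicle and 9.44, 9.55 and 9.32 under DFX (difference 0.48; limma, unadjusted p = 0.0126, adjusted p = 0.514). A further CIDEC probe overlapped between the groups, with a difference of -0.09 (limma, unadjusted p = 0.686). The GC box GGGCGG, searched on both strands, was in a promoter window of 6 of the 34 keratin genes that had one. Over all 35116 windows, counted as windows and not as genes, the share was 45%.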
